A study of Mus musculus with 11 samples.

Results

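The genes of the mouse mitochondrial genome were followed in embryonic stem cells (ESCs) in which the cap methyltransferase CMTR1 had been targeted with siRNA. A gene was a member if its symbol in the Ensembl annotation of GRCm38 starts with mt-, which took in 37 of the 54838 genes in the count files: 13 protein-coding genes, 2 rRNA genes and 22 tRNA genes. The cells were of the E14 line, an established mouse ESC line grown here with LIF on gelatin, so that every group is of 1 line. They were transfected for 36 h with a control scramble siRNA (3 libraries) or with CMTR1 siRNA 1 or CMTR1 siRNA 2 (4 libraries each), 2 different sequences against the same gene. Total RNA was depleted of rRNA and sequenced as strand-specific paired reads of 75 bases, and the study asked how transcript levels depend on CMTR1. The methods speak of biological replicates, fewer than the libraries of each CMTR1 siRNA group, and the labels do not say which libraries came from separate cultures, so p-values measure only the spread between these libraries, which may be technical.

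CMTR1 methylates the first transcribed nucleotide of transcripts that carry a 7-methylguanosine cap, which are made by RNA polymerase II in the nucleus. Mitochondrial transcripts are made inside the organelle by a separate single-subunit polymerase, POLRMT, as long polycistronic precursors of both DNA strands. The precursors are cut at the tRNAs that lie between most of the other genes, and the released mRNAs, rRNAs and tRNAs carry no such cap. The protein-coding genes specify core subunits of respiratory complexes I, III and IV and of ATP synthase (complex V), the rRNA genes the RNAs of the mitochondrial ribosome, and the tRNA genes the set that this ribosome reads the code with.

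A stretch of the mitochondrial genome has a near-identical copy in the nuclear genome. On chromosome 1 of GRCm38, on the minus strand between 24611535 and 24616197, the annotation holds 7 pseudogenes (Gm28439, Gm10222, Gm28438, Gm28437, Gm10925, Gm28661 and Gm29216) whose sequences match mitochondrial positions 6394 to 11042, a span of 4649 bases. Of the 7, 5 were identical to the mitochondrial genome at every base, Gm28438 differed at 1 position of 345, and Gm29216 at 6 positions that lie at one end of the match. The nuclear sequence between the annotated pseudogenes was not analysed here. The start of mt-Nd3, the gene of a complex I subunit, and the same stretch of Gm28438 are shown because they differ at T9461C, counted from the start of the mitochondrial reference. Over the bases of the 7 pseudogenes, this was the only base inside the match at which a read could be told apart. It is in capitals.

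mt-Nd3: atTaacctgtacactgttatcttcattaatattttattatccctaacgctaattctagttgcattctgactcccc
Gm28438: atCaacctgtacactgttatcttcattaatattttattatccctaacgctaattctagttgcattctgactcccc

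The gene of another complex I subunit, mt-Nd4l (positions 9877 to 10173, plus strand), is shown whole because its first 294 bases are also those of Gm10222. The capitals mark the last 7 bases, which are shared with the start of mt-Nd4.

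mt-Nd4l: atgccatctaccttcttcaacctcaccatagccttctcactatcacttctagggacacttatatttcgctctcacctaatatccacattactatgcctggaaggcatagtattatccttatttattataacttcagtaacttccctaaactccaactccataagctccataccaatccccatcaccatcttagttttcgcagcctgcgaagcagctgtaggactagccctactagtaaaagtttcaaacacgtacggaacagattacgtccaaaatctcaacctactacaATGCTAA

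These sequences and those of the tRNA genes given further on are from the GENCODE M21 transcripts of GRCm38, the C57BL/6J reference.

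The 6 protein-coding genes that lie wholly inside the matched span had almost no counted reads. They were mt-Co2 and mt-Co3 (complex IV), mt-Atp8 and mt-Atp6 (ATP synthase), and mt-Nd3 and mt-Nd4l (complex I). Each had 0 to 3 reads in each library, and together they had 35 reads over the 11 libraries. mt-Co2 had 14 of these reads, mt-Atp6 and mt-Co3 had 9 each, and mt-Atp8, mt-Nd3 and mt-Nd4l had 1 each. The 5 protein-coding genes that lie wholly outside the span had between 14379 reads (mt-Nd6) and 207032 reads (mt-Cytb) in sum. Read-length words of 75 bases were also found in nuclear pseudogenes for 97.8% of the words of mt-Nd3 and for 99.9% of those of mt-Co3. For mt-Atp8 no such word was found, because most of mt-Atp8 falls between the annotated pieces. The copy itself drew few reads. Gm28438 had 11 to 26 reads per library and was the only one of the 7 pseudogenes above the filter on low counts, while the other 6 had 0 to 9. Gm13341, a less similar copy on chromosome 2 that also passed the filter, had 73 reads in sum. Between 787556 and 974693 reads per library were listed as aligned to more than 1 place in the 10 files that hold this line, and belong to no gene. Where reads of the 6 genes went was not tested, and the near-absence of their counts is not evidence that they were not expressed.

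Of the 2 genes at the edges of the span, mt-Co1 (the catalytic core subunit of complex IV) has 479 of its 1545 bases inside it and mt-Nd4 (a proton-pumping subunit of complex I) 876 of 1378. Both were counted well, with 308344 and 73832 reads in sum. The plot of reads by gene in map order shows the gap in the counts between them.

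**Figure D1:**
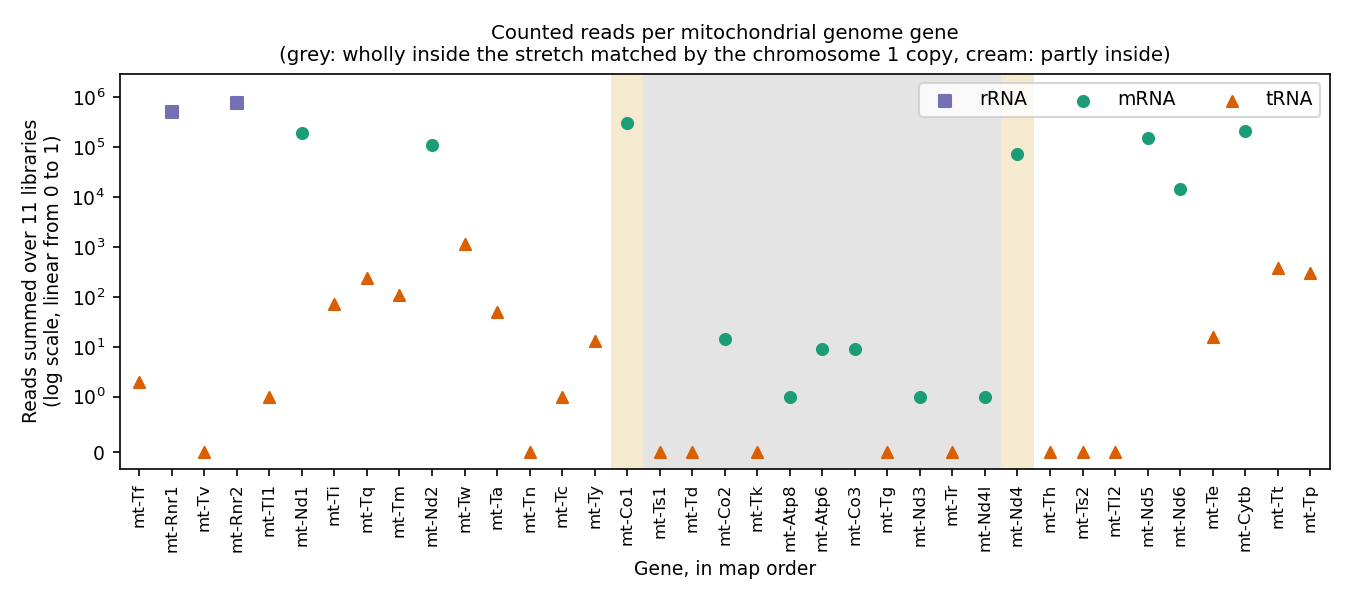
Reads summed over the 11 libraries for each of the 37 genes in map order, on a log scale that is linear from 0 to 1. The 6 protein-coding genes wholly inside the stretch matched by the chromosome 1 copy (grey) hold 1 to 14 reads each, while mt-Co1 and mt-Nd4, which lie partly inside (cream), hold 308344 and 73832.

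Levels are given in CPM, a gene's counts scaled to the library's total over all genes. With more than 1 CPM in at least 4 libraries as the filter, 14 of the 37 members could be tested: both rRNA genes, 7 protein-coding genes (mt-Nd1, mt-Nd2, mt-Co1, mt-Nd4, mt-Nd5, mt-Nd6 and mt-Cytb) and 5 tRNA genes (mt-Tq, mt-Tm, mt-Tw, mt-Tt and mt-Tp). The 23 that did not pass were the 6 protein-coding genes above and 17 tRNA genes. Of the mitochondrially encoded subunits, complex I was represented by 5 of its 7, complex III by its only one, complex IV by 1 of 3 and ATP synthase by none.

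The libraries held 6738478 to 8382318 counts in genes. All 12 ESC markers (Pou5f1, Sox2, Nanog and others) passed the filter, with summed levels of 2114 to 2255 CPM in the control libraries, 1788 to 1999 in siRNA 1 and 1894 to 1975 in siRNA 2, so that all control libraries were above those of both siRNAs, and the part of this in the results below was not tested. Markers of fibroblasts, neural cells, primitive endoderm, mesoderm and trophoblast summed to 10.5 to 116 CPM per list, and no marker of any list was at 0 in every library. Cmtr1, the targeted gene, was at 20.3 ± 2.10 CPM in control (SD, n = 3), 19.2 ± 2.45 in siRNA 1 (n = 4) and 17.1 ± 1.68 in siRNA 2 (n = 4). The ranges of the groups overlapped and neither difference passed the edgeR quasi-likelihood test (adjusted p = 0.743 and 0.144), so the gene counts did not show the knockdown, and the groups are named here by their labels. The paper reports a rapid fall of CMTR1 after siRNA transfection and lists both siRNAs for western blots. Protein is not part of these counts.

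The 37 genes gave 2.53 to 2.98% of the counts in genes. In the control libraries the share was 2.89, 2.70 and 2.85%, in siRNA 1 it was 2.98, 2.83, 2.84 and 2.90%, and in siRNA 2 it was 2.78, 2.53, 2.91 and 2.70%. The means were 2.81% ± 0.103 (SD, n = 3), 2.89% ± 0.0706 (n = 4) and 2.73% ± 0.156 (n = 4). The groups overlapped in every pairing, and the differences of 0.0784 and -0.0815 percentage points from control were smaller than the control SD. In bulk RNA a share can change with the number of transcripts per cell, with the amount of other RNA or with the make-up of the culture, which cannot be told apart here.

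The rRNAs made up the larger portion. The 2 rRNA genes took 1.54% ± 0.0790 of counts in control, 1.56% ± 0.0598 in siRNA 1 and 1.53% ± 0.0676 in siRNA 2, with overlapping groups. The protein-coding genes took 1.27% ± 0.0310, 1.32% ± 0.0160 and 1.20% ± 0.0895, and here the 4 siRNA 1 libraries (1.31 to 1.35%) were above all control libraries (1.24 to 1.30%) and above all siRNA 2 libraries (1.09 to 1.30%). The siRNA 2 libraries overlapped the control libraries. The 22 tRNA genes together had only 152 to 254 reads per library. The share of the 77 nuclear-encoded subunits of the respiratory chain and ATP synthase, listed for comparison, was 0.723% ± 0.00506 in control, 0.725% ± 0.00985 in siRNA 1 and 0.706% ± 0.0256 in siRNA 2, with overlapping groups.

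**Figure D2:**
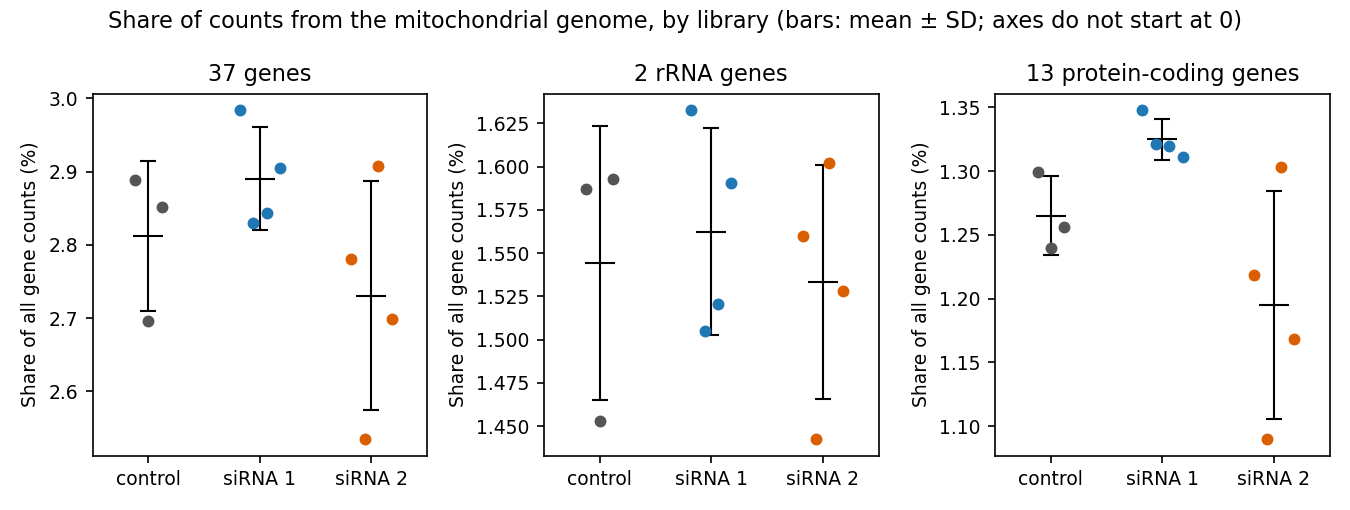
Share of all gene counts (%) taken by the 37 genes, the 2 rRNA genes and the 13 protein-coding genes, with 1 point per library and the mean and SD of each group. The total and rRNA shares overlap between all groups, while the protein-coding share of the 4 siRNA 1 libraries (1.31 to 1.35%) lies above the other 7 libraries.

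The rRNA of the small mitochondrial ribosomal subunit, mt-Rnr1 (positions 70 to 1024, plus strand), was at 6259, 5715 and 6351 CPM in control, at 6603, 6108, 6126 and 6400 in siRNA 1, and at 6244, 5877, 6448 and 5963 in siRNA 2. That of the large subunit, mt-Rnr2, averaged 9336 ± 449 CPM in control, 9315 ± 363 in siRNA 1 and 9198 ± 448 in siRNA 2. Neither passed edgeR's quasi-likelihood test between any pair of groups (adjusted p of 0.610 to 0.981). The log2 fold changes lay between -0.04 and 0.05, and the 95% intervals reached from -0.12 (mt-Rnr1 between the siRNAs) to 0.13 (mt-Rnr1 with siRNA 1 against control). The depletion kit also targets mitochondrial rRNA, so these levels are of what was left after it. The number of mt-Rnr2 reads per mt-Rnr1 read was 1.51 to 1.54 in control, 1.46 to 1.49 in siRNA 1 and 1.45 to 1.56 in siRNA 2. In this ratio siRNA 1 was below control without overlap, while siRNA 2 overlapped both, which is a description without a test.

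Per length, the measured mRNAs differed widely although most come from the same precursor. In the control libraries mt-Nd1 and mt-Co1 were highest, at 2416 ± 40.3 and 2406 ± 82.7 CPM per kb (SD, n = 3), and their ranges overlapped. Below them were mt-Cytb (2137 ± 51.0 CPM per kb), mt-Nd2 (1261 ± 28.6), mt-Nd5 (996 ± 20.9), mt-Nd4 (630 ± 18.2) and mt-Nd6 (350 ± 31.8), each apart from the next in all 3 libraries. mt-Nd6, a complex I subunit, is the only protein-coding gene on the minus strand. The places of mt-Co1 and mt-Nd4 rest on the length used. Over the bases outside the copied span alone, mt-Co1 came to 3386 to 3619 and mt-Nd4 to 1699 to 1788 CPM per kb, which put mt-Co1 above mt-Nd1 and mt-Nd4 above mt-Nd2. This length leaves out only the chromosome 1 copy. A partly matching copy on chromosome 2 spans all of mt-Co1. Words of 75 bases shared with any nuclear transcript were 39.8% for mt-Co1, 61.5% for mt-Nd4, 5.7% for mt-Nd2 and 1.7% for mt-Nd5. The uniquely placed length was not worked out. The rRNAs were at 6396 ± 360 (mt-Rnr1) and 5901 ± 284 CPM per kb (mt-Rnr2), with overlapping ranges.

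With CMTR1 siRNA 1, 0 of the 14 members passed the test against control, where 4.67% of all 16073 genes tested did. Of these 14, 3 (mt-Nd4, mt-Nd5 and mt-Tw) had an unadjusted p below 0.05, a threshold for which the share of all genes was not worked out. With edgeR's exactTest and with DESeq2, 0 were called as well. The lowest adjusted p was 0.205. The 6 measured mRNAs of the plus strand had log2 fold changes of 0.03 (mt-Nd1) to 0.11 (mt-Nd4), or 1.83 to 7.88% above control, and mt-Nd6 had -0.08. The median over the 7 mRNAs was 0.08, beside 0.02 over all genes. For 4 of the 14 members, all of them mRNAs (mt-Nd2, mt-Nd4, mt-Nd5 and mt-Cytb), all 4 siRNA 1 libraries were above all 3 control libraries. The other members overlapped. Of all genes tested, 15.5% showed such a separation in one direction or the other. mt-Nd5, a proton-pumping subunit of complex I (positions 11742 to 13565, plus strand), was at 1857, 1781 and 1813 CPM in control and at 2032, 1954, 1919 and 1918 in siRNA 1. Its log2 fold change was 0.11 ± 0.046 (SE), with an adjusted p of 0.205 in edgeR's quasi-likelihood test. mt-Nd4 was at 897, 853 and 855 CPM in control and at 965, 949, 914 and 920 in siRNA 1, with a log2 fold change of 0.11 ± 0.049 and an adjusted p of 0.226.

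With CMTR1 siRNA 2, 2 of the 14 members passed, both lower than control, where 9.72% of all genes tested passed in either direction. One was mt-Nd1, a complex I subunit (positions 2751 to 3707, plus strand). It was at 2356, 2283 and 2299 CPM in control and at 2155, 1912, 2309 and 2053 in siRNA 2. Replicate 3 of siRNA 2 was within the control range and the other 3 were below it. The level fell by 8.88%, a log2 fold change of -0.13 ± 0.044 (SE), with an adjusted p of 0.0447 in edgeR's quasi-likelihood test. The call was lost in 8 of the 11 fits that each left out 1 library (adjusted p of 0.0603 to 0.188). These were the fits without any 1 of the 3 control libraries, of replicates 2 and 4 of siRNA 1, or of replicates 1, 2 and 4 of siRNA 2, with log2 fold changes between -0.15 and -0.09. It was also lost with edgeR's exactTest (adjusted p = 0.0525) and in a fit of these 2 groups alone (0.0648). The other was the tRNA gene mt-Tm, described with the tRNA genes below.

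All 7 measured mRNAs had a negative log2 fold change with siRNA 2, from -0.16 (mt-Nd6) to -0.03 (mt-Nd5), with a median of -0.07 beside 0.03 over all genes. None of the 7 had its siRNA 2 libraries apart from those of control, and of the 14 members only mt-Tm did, beside 19.4% of all genes tested. mt-Co1 (-0.11 ± 0.043) had an adjusted p of 0.102 and mt-Nd6 (-0.16 ± 0.067) an adjusted p of 0.125, while the other 4 uncalled mRNAs had 0.437 to 0.760. DESeq2 called mt-Co1 (-0.14, adjusted p = 0.0421), and edgeR with no filter on low counts called mt-Nd6 (-0.16, adjusted p = 0.0419). The siRNA 2 libraries were more spread than those of the other groups. For the 6 plus-strand mRNAs the coefficient of variation was 6.79 to 9.65% in siRNA 2, against 1.67 to 3.44% in control and 1.25 to 2.83% in siRNA 1. Replicate 3 was the highest of the 4 siRNA 2 libraries for all 6. Replicate 2 was the lowest for 5 of them, and replicate 4 for mt-Nd4. The test shares a dispersion estimate per gene over the 3 groups and gives the siRNA 2 group no wider spread of its own. The SE and p-values of both comparisons with siRNA 2 may therefore be too small for these mRNAs. Without replicate 3, mt-Co1 passed as well (log2 fold change -0.14, adjusted p = 0.0206 in edgeR), and without replicate 4 or without control replicate 2, mt-Nd6 did (-0.23, adjusted p = 0.0267, and -0.24, adjusted p = 0.0438).

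**Figure D3:**
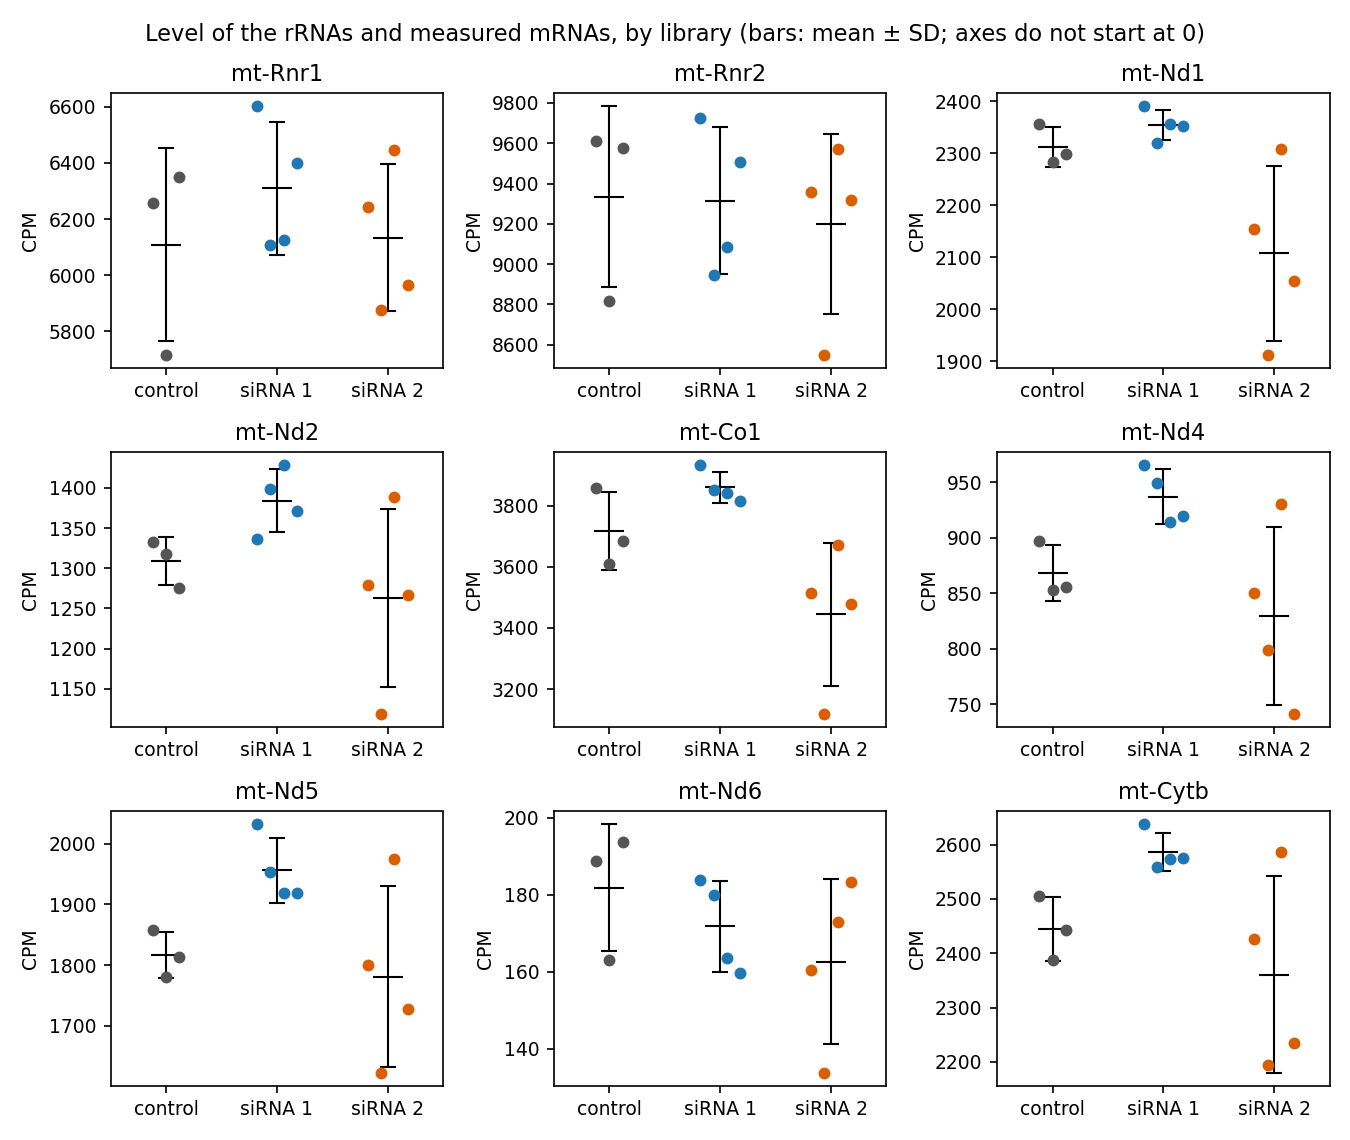
Level in CPM of the 2 rRNAs and the 7 measured mRNAs, with 1 point per library and the mean and SD of each group, on axes that do not start at 0. The rRNAs overlap between groups, whereas for mt-Nd1 and mt-Co1 the siRNA 2 libraries (1912 to 2309 and 3118 to 3671 CPM) lie below the siRNA 1 libraries (2319 to 2391 and 3817 to 3933 CPM).

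More members passed between the 2 siRNAs than between either and control, in a comparison of 4 with 4 libraries rather than 3 with 4. With siRNA 2 against siRNA 1, 6 of the 14 members passed, all lower with siRNA 2, where 7.44% of all genes tested passed in either direction. They were mt-Nd1, mt-Co1, mt-Nd4, mt-Nd5, mt-Cytb and mt-Tm. All 7 mRNAs had a negative log2 fold change, with a median of -0.14 beside 0.00 over all genes. mt-Nd2 missed the threshold at -0.13 ± 0.043 (adjusted p = 0.0525), and mt-Nd6 was at -0.08 ± 0.063 (adjusted p = 0.513), both in edgeR's quasi-likelihood test.

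mt-Co1 (positions 5328 to 6872, plus strand) was at 3933, 3851, 3842 and 3817 CPM in siRNA 1 and at 3515, 3118, 3671 and 3478 in siRNA 2. The groups did not overlap, and the control libraries, at 3858, 3609 and 3684 CPM, lay between and across them. From siRNA 1 to siRNA 2 its level fell by 10.8%, a log2 fold change of -0.16 ± 0.040 (SE), with an adjusted p of 0.00648 in edgeR's quasi-likelihood test. It was the only one of the 6 to keep its call in each of the 11 fits that left out 1 library (adjusted p of 0.000642 to 0.0444). mt-Nd1 differed by -0.16 ± 0.041 (adjusted p = 0.0101), also without overlap, and lost its call only without replicate 2 of siRNA 2 (-0.12, adjusted p = 0.0650).

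mt-Nd4 was at 965, 949, 914 and 920 CPM in siRNA 1 and at 850, 799, 930 and 741 in siRNA 2, so that replicate 3 of siRNA 2 was within the siRNA 1 range. Its log2 fold change was -0.18 ± 0.045, with an adjusted p of 0.0105 in edgeR's quasi-likelihood test that rose to 0.0859 (-0.12) without replicate 4 of siRNA 2. Cytochrome b, mt-Cytb (positions 14145 to 15288, plus strand), the only mitochondrially encoded subunit of complex III, was at 2638, 2558, 2573 and 2574 CPM in siRNA 1 and at 2425, 2195, 2587 and 2235 in siRNA 2. It differed by -0.13 ± 0.041 (adjusted p = 0.0373), and mt-Nd5 by -0.14 ± 0.042 (adjusted p = 0.0391). For both, replicate 3 of siRNA 2 again fell within the siRNA 1 range. mt-Cytb lost its call without any 1 of the 4 siRNA 1 libraries or of replicates 1, 2 and 4 of siRNA 2 (adjusted p of 0.0512 to 0.150), and mt-Nd5 without any 1 of the same libraries other than replicate 3 of siRNA 1 (0.0606 to 0.180). In a fit of the 2 siRNA groups alone, edgeR gave mt-Cytb an adjusted p of 0.0562 and mt-Nd5 one of 0.0580, and DESeq2 gave mt-Nd5 0.0529. mt-Nd2 passed in 4 of the 9 alternative fits that left out no single library (adjusted p of 0.0200 to 0.0497), without replicate 1 of siRNA 1 (-0.15, adjusted p = 0.0478) and without replicate 3 of siRNA 2 (-0.18, adjusted p = 0.00300).

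Across the 14 members, the libraries of the siRNAs did not overlap for 3 (mt-Nd1, mt-Co1 and the tRNA gene mt-Tt), beside 11.8% of all genes tested. In this comparison the rRNAs were at -0.04 (mt-Rnr1, 95% interval -0.12 to 0.04) and -0.02 (mt-Rnr2, -0.10 to 0.06), and the 6 plus-strand mRNAs at -0.18 to -0.13, and the difference between these sets was not tested. The number of rRNA reads per mRNA read was 1.18 ± 0.0386 in siRNA 1 and 1.29 ± 0.0414 in siRNA 2, without overlap, and 1.22 ± 0.0477 in control, which overlapped both. The summed ESC markers overlapped between the 2 siRNAs, at the levels given above. Reads aligned to more than 1 place were 5.79 to 5.98% of the reads listed in siRNA 1 and 5.87 to 6.32% in the 3 siRNA 2 libraries that list them. The part of these reads in the result was not tested.

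**Figure D4:**
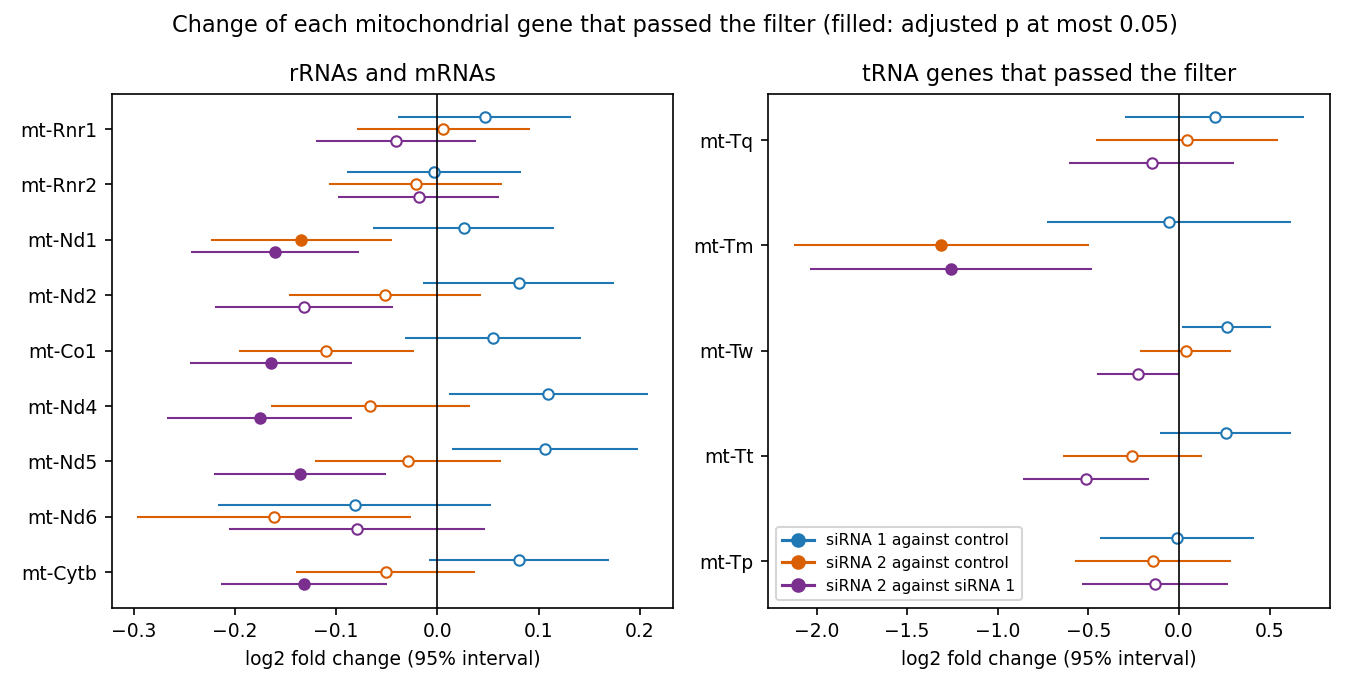
Log2 fold change and 95% interval of the 14 members that passed the filter in 3 comparisons, with filled points for an adjusted p of at most 0.05 in edgeR's quasi-likelihood test. Nothing is filled for siRNA 1 against control, mt-Nd1 and mt-Tm are for siRNA 2 against control, and 6 genes are for siRNA 2 against siRNA 1, all to the left of 0.

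Within the mRNAs, the proportions of mt-Nd1, mt-Nd4 and mt-Nd5 were apart from control with 1 or both siRNAs, which is a description without a test. The shares are parts of a whole, so a lower share of any gene means higher shares of others. No background was worked out for shares. In level, 15.5% of all genes tested were apart from control with siRNA 1 and 19.4% with siRNA 2. As a share of the reads of the 7 measured mRNAs, mt-Co1 was 29.4% ± 0.288 in control, 29.1% ± 0.0324 in siRNA 1 and 28.8% ± 0.672 in siRNA 2. mt-Nd1 was 18.1 to 18.4% in control, 17.6 to 17.9% in siRNA 1 and 17.5 to 17.7% in siRNA 2, so that its share was lower than in control in all 8 CMTR1 siRNA libraries, by 0.509 and 0.651 percentage points on average. mt-Nd5 was 14.3 to 14.4% in control, 14.5 to 15.1% in siRNA 1 and 14.8 to 15.2% in siRNA 2, higher than in control in all 8. Both siRNA groups are set against the same 3 control libraries, so the 2 comparisons are not independent. mt-Nd4 was 6.86% ± 0.0511 in control and 7.07% ± 0.124 in siRNA 1, without overlap, and 6.95% ± 0.428 in siRNA 2, which overlapped both. mt-Nd2, mt-Co1, mt-Cytb and mt-Nd6 overlapped between groups in every pairing. mt-Nd6, from the opposite strand, took 1.31 to 1.54% in control, 1.22 to 1.36% in siRNA 1 and 1.23 to 1.57% in siRNA 2. The strand setting used in counting is not given in the sources used here, so that reads of mt-Nd6 and reads of the opposite strand at the same place cannot be told apart.

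The tRNA genes are 59 to 75 bases long, no longer than a single read, and were barely counted. Together the 22 had 2310 reads over all libraries, and 10 were at 0 in every library: mt-Ts1, mt-Td, mt-Tk, mt-Tg and mt-Tr, which are the 5 inside the copied span, and mt-Tv, mt-Tn, mt-Th, mt-Ts2 and mt-Tl2 outside it. A count of 0 allows up to 3 reads in sum, or 0.0356 CPM, as counting error alone. Of the other 12, 5 passed the filter, 3 followed with 71 (mt-Ti), 50 (mt-Ta) and 16 (mt-Te) reads in sum, and mt-Ty, mt-Tf, mt-Tl1 and mt-Tc had 13, 2, 1 and 1. The sequences of the tRNA gene that passed the test with siRNA 2, mt-Tm (methionine, positions 3845 to 3913, plus strand), and of the one with most reads, mt-Tw (tryptophan, 4950 to 5016, plus strand), are shown to set their length against the reads. Capitals mark bases that also belong to a neighbouring gene, which for mt-Tw are the end of mt-Nd2.

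mt-Tm: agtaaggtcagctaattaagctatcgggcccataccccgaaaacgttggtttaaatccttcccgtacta
mt-Tw: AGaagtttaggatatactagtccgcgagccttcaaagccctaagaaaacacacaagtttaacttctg

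The tRNA genes with most reads differed from the others in their neighbours. Of the 17 tRNA genes outside the copied span, 9 had a stretch of at least 50 bases with no gene of the same strand next to them on one side or both, and these had 13 to 1123 reads in sum. The other 8 were measured with gaps of at most 32 bases on both sides, and had 0 to 2. Gaps were measured on the linear reference, so mt-Tf (2 reads), which starts at position 1, was given none before it. mt-Tt, the last gene of that strand, was given an open one. The genome is a circle in which both border the same stretch, so mt-Tf would then be an exception to the split. The 50-base limit was chosen after the counts were seen, and the split is a description. Whether reads that cross into a neighbouring gene were left out of the tRNA counts was not tested; between 137308 and 164565 reads per library were listed as ambiguous between genes.

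mt-Tm had 11, 14 and 15 reads in the control libraries, 20, 15, 8 and 6 in siRNA 1, and 3, 6, 4 and 8 in siRNA 2. Whether these reads came from the tRNA or from precursors not yet cut was not tested. All siRNA 2 libraries were below all control libraries and overlapped those of siRNA 1, in counts of at most 20. The log2 fold change was -1.31 ± 0.40 (SE) for siRNA 2 against control (adjusted p = 0.0307 in edgeR's quasi-likelihood test) and -1.26 ± 0.38 against siRNA 1 (adjusted p = 0.0352). Against control the call was lost without control replicate 2 or 3 or without siRNA 2 replicate 1, 2 or 3 (adjusted p of 0.0577 to 0.137, log2 fold change -1.34 to -1.17), and against siRNA 1 without siRNA 1 replicate 1 or 2 or siRNA 2 replicate 1, 2 or 3 (0.0682 to 0.239, -1.29 to -0.87).

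No other tRNA gene passed in any comparison. mt-Tw was at 90, 98 and 101 reads in control, 110, 114, 119 and 99 in siRNA 1, and 76, 97, 110 and 109 in siRNA 2, and its lowest adjusted p was 0.234. mt-Tt (threonine) was at 31 to 45 reads in siRNA 1 and 26 to 32 in siRNA 2. In CPM these did not overlap, with a log2 fold change of -0.51 ± 0.17 and an adjusted p of 0.0573 that came to 0.0431 without replicate 3 of siRNA 2, all in edgeR. mt-Tq (glutamine) and mt-Tp (proline) had 16 to 39 reads per library and adjusted p of 0.743 or more.

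The nuclear genes that work with these transcripts were set beside them as 12 lists of 175 genes in all, of which 174 could be tested. With siRNA 1, 1 of the 174 passed and was higher. It was Ears2, which charges mitochondrial tRNA with glutamate, at 24.5 ± 0.923 CPM in control (n = 3) and 32.8 ± 1.99 in siRNA 1 (n = 4), a log2 fold change of 0.42 ± 0.086 (adjusted p = 0.00131 in edgeR's quasi-likelihood test). The next lowest were Fastk (0.20 ± 0.069, adjusted p = 0.0874), of a family of mitochondrial RNA-binding proteins, and Gabpa (-0.15 ± 0.050, adjusted p = 0.0895), a transcription factor of respiratory genes. With siRNA 2, 8 of the 174 passed, 6 lower and 2 higher, and none was called by both siRNAs. The lowest adjusted p were those of Iars2 (-0.30 ± 0.058, adjusted p = 0.000508) and Mars2 (0.35 ± 0.082, adjusted p = 0.00401), which charge mitochondrial tRNA with isoleucine and methionine, and Cox6a1 (-0.32 ± 0.064, adjusted p = 0.000627), a nuclear subunit of complex IV that went from 136 ± 9.74 to 109 ± 5.51 CPM. The share called was 4.67% of all genes for siRNA 1 and 9.72% for siRNA 2, and neither list count was above it.

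By complex, 0 to 2 nuclear subunits passed against control with either siRNA. Of the 36 tested of complex I, 0 passed with siRNA 1 and 1 passed with siRNA 2, and the medians were 0.04 and -0.03, beside 0.02 and 0.03 over all genes. Of the 12 of complex IV, 0 and 2 passed, the latter both lower, with medians of -0.01 and -0.06, and of the 16 of ATP synthase 0 and 2 passed, both lower, with medians of -0.01 and -0.02. Log2 fold changes below 0 were found for 10 and 22 of complex I, 6 and 11 of complex IV and 9 and 11 of ATP synthase. They were found for 3 and 1 of complex II and 2 and 4 of complex III. Of the 9 of complex III none passed with either siRNA (0 and 1 at an unadjusted p below 0.05), and of the 4 of complex II, which has no mitochondrially encoded subunit, 0 and 1 passed. None of the 9 genes of mitochondrial transcription passed against control with either siRNA (0 and 3 at an unadjusted p below 0.05), nor of the 22 of RNA processing and stability (4 and 2), the 19 of RNA modification (2 and 1), the 9 of mitochondrial DNA replication (0 and 3), the 11 of translation factors (1 and 1) or the 6 regulators of biogenesis tested (1 and 1). The share of all genes with an unadjusted p below 0.05 was not worked out, so these counts have no background beside them. With siRNA 2 against siRNA 1, 52 of the 77 nuclear subunits were below 0 and 25 above. Their median was -0.04 beside 0.00 over all genes, and 4 passed, all lower. In this direct comparison of siRNA 2 with siRNA 1, 8 of the 174 passed, all lower, beside 7.44% of all genes in either direction. One of the 8, named after its values were seen, was Polrmt, the mitochondrial RNA polymerase, at 72.7 ± 9.53 CPM in siRNA 1 and 61.5 ± 6.25 in siRNA 2 (log2 fold change -0.24 ± 0.070, adjusted p = 0.0261 in edgeR's quasi-likelihood test) and at 69.5 ± 1.69 in control. Against control it had adjusted p of 0.728 with siRNA 1 and 0.142 with siRNA 2 in the same test. Between the siRNAs the 9 genes of its list had a median of 0.05, with 5 above 0 and 4 below. The part of Polrmt in the mRNA levels was not tested. With each library left out in turn, 2 to 12 nuclear pathway genes were called between the siRNAs. Whether Polrmt stayed among them is not given.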

How the data were processed

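Deposited values were raw counts, whole reads per gene in each of 11 libraries (36 h). As the methods and the submitters' processing notes have it, the authors used cutadapt for trimming, STAR for alignment to GRCm38/mm10, Picard to take out PCR duplicates, and featureCounts. However, 10 of the 11 files close with summary lines of the HTSeq-count type. These were set aside as reads of no gene. Versions, the strand setting and the treatment of reads with several alignments are not given in the sources used here.

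GENCODE M21 gave a symbol for 54809 of 54838 gene identifiers. Genes with more than 1 CPM in at least 4 libraries (16073) were tested in R 4.3.3 with edgeR 4.0.16 by a quasi-likelihood test on all 3 groups, scaled by total counts. The 3 groups shared the dispersion estimate of each gene. P-values were adjusted by Benjamini-Hochberg over all genes tested and called at 0.05. Intervals of fold changes are 95%, and limits for counts of 0 (3 counts) cover counting error only. Libraries of a group differed by more than sampling noise in every pair (chi-square per gene of 1.31 to 2.94). Alternatives were TMM factors, DESeq2 1.42.0, exactTest, library sizes without the members or without Gm26917, other filters (none, or 0.5 CPM in 3 libraries), fits of 2 groups, a replicate block, other denominators, and each library left out in turn. The test was checked on simulated data. Words of 31 and 75 bases were matched between members and annotated nuclear transcripts in Python 3.11.15 (pandas 2.3.3, numpy 2.4.6). Scipy 1.17.1 and matplotlib 3.10.9 were also used.

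The members and the lists of nuclear genes and markers were chosen with earlier results of these data known. Every member was accounted for. Protein-coding, rRNA and tested tRNA genes were named, as were, below the filter, the 3 tRNA genes with most reads and those at 0. From the nuclear lists, the genes named were those called in one direction with each siRNA, or else the 3 of lowest adjusted p per siRNA, and nuclear copies were named where they passed the filter.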

Additional observations from a re-analysis of the deposited data

Results flagged for a closer look

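For 6 genes the effects of the 2 siRNAs differed by a test of the difference itself, edgeR's quasi-likelihood test of siRNA 2 against siRNA 1. The log2 fold changes were -0.16 for mt-Nd1, -0.16 for mt-Co1, -0.18 for mt-Nd4, -0.14 for mt-Nd5, -0.13 for mt-Cytb and -1.26 for mt-Tm, with adjusted p of 0.00648 to 0.0391. All 4 siRNA 2 libraries were below all 4 siRNA 1 libraries for mt-Nd1 and mt-Co1, and for the other 4 genes the groups overlapped.

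Of the 38 sets of 4 libraries checked for a library apart from the rest, 1 had one. mt-Tq was at 3.95 CPM in siRNA 2 replicate 4, on 32 reads, and at 2.27 to 2.43 CPM in the other 3 libraries. Chance picks out about 1 in 20 such sets.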

How the results depend on the processing

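The least counted of the 7 measured mRNAs, mt-Nd6, had 1120 reads or more per library, while the tested tRNA genes mt-Tm and mt-Tq had 3 to 32, so that counting error weighs most on the tRNA genes. Of the settings that kept all libraries, the one that moved the median of all genes most was DESeq2's scaling for siRNA 2 against control (a shift of -0.029 on the log2 scale). DESeq2 called 958 of all genes for siRNA 2 against control and 740 between the siRNAs, in place of 1562 and 1196. Replicate numbers recur between groups in the labels, but same-numbered libraries did not deviate together (mean correlation 0.0102 over 10 pairs, 0 of them over 0.1), so that pairing rests on a number alone.

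The number of members called for siRNA 2 against control, 2 in the report, was 1 with exactTest, 1 with a fit of the 2 groups compared and 0 with the replicate block, under which mt-Nd1 had a log2 fold change of -0.13 (adjusted p = 0.0658) and mt-Tm of -1.21 (adjusted p = 0.0594), both in edgeR. The block left 0 members called for siRNA 1 and 6 between the siRNAs. It turned the sign of mt-Tm (0.044) and mt-Tp (0.0095) with siRNA 1 and of mt-Tq (-0.066) with siRNA 2. With siRNA 2, mt-Rnr1 (0.0059 in the report) turned to -0.019 with TMM factors, -0.023 with DESeq2 and -0.000665 with library sizes without Gm26917. With no filter on low counts, 2 nuclear pathway genes were called for siRNA 1 in place of 1. Between the siRNAs, DESeq2 and the fit of 2 groups called 4 members in place of 6. Of the counts, medians and shares compared, 92 of 96 values under settings that kept all libraries stayed within 1.5 times the count or 1 SD. These include the share over the 7 measured mRNAs, a setting chosen after seeing the data.

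With each library left out in turn, the members called were 0 for siRNA 1, 0 to 2 for siRNA 2 and 2 to 7 between the siRNAs, and the nuclear pathway genes called were 1 to 3, 4 to 10 and 2 to 12. Log2 fold changes whose sign turned ran, with siRNA 1, from -0.043 to 0.018 (mt-Rnr2), -0.44 to 0.17 (mt-Tm) and -0.19 to 0.083 (mt-Tp). With siRNA 2 they ran from -0.040 to 0.035 (mt-Rnr1), -0.061 to 0.012 (mt-Rnr2), -0.19 to 0.26 (mt-Tq), -0.10 to 0.0028 (mt-Nd2), -0.044 to 0.11 (mt-Tw) and -0.082 to 0.013 (mt-Nd5). Between the siRNAs they ran from -0.038 to 0.015 (mt-Rnr2), -0.14 to 0.0063 (mt-Nd6) and -0.23 to 0.044 (mt-Tp). No log2 fold change was called under a setting that turned its sign. The cause of these changes was not tested.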

Other observations

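The other nuclear subunits of the respiratory chain and ATP synthase that passed for siRNA 2 against control were named after their values were seen. Sdhb, the iron-sulphur subunit of complex II, went from 59.1 ± 0.638 CPM in control (SD, n = 3) to 49.3 ± 5.96 in siRNA 2 (n = 4), a log2 fold change of -0.26 ± 0.071 (SE). Cox4i1 of complex IV had a log2 fold change of -0.16 ± 0.044, and Atp5g3 and Atp5j2 of ATP synthase had -0.18 ± 0.056 and -0.20 ± 0.059. Ndufa12 of complex I was higher, at 30.3 ± 2.86 CPM in control and 36.9 ± 1.15 in siRNA 2 (0.28 ± 0.080). Adjusted p in edgeR's quasi-likelihood test were 0.0140 to 0.0300 for these 5, and with siRNA 1 none of the 5 passed.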
